A study of Mus musculus with 35 samples.

Results

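Lists of H3K27ac peaks were compared, 5 in all, 3 from day 3 and 2 from day 9 of the reprogramming of mouse embryonic fibroblasts (MEFs) to induced pluripotency, out of 22 peak lists in the series. Peaks on chromosomes 1 to 19 and X were merged wherever they shared at least 1 bp, which gave 79727 regions. A region was called lost when all 3 day 3 lists and no day 9 list had a peak in it (4053 regions, 5.08% of all). It was called gained when both day 9 lists and no day 3 list had one (11580 regions, 14.5%), and common when all 5 had one (15242 regions, 19.1%). The other 48852 regions met none of these rules. Both groups came from MEFs of C57BL/6 x 129 background that carried M2rtTA at Rosa26 and a doxycycline-inducible cassette of Oct4, Klf4, Sox2 and Myc (OKSM) at Col1a1. They were kept in ESC medium with serum and LIF and were given ascorbic acid (50 µg/ml) together with doxycycline (1 µg/ml). The comparison asks which acetylated regions differ between an early and a late stage of reprogramming. Day 3 cells were the unsorted culture, whereas day 9 cells had been sorted for the surface antigen SSEA1, so that the day and the sort cannot be told apart. One day 3 library and both day 9 libraries were labelled batch EA-3702, and the other 2 day 3 libraries were labelled batch DG-3458. The peak names inside the EA-3702 day 3 list give the same day but another replicate number than its title, and the names inside both DG-3458 day 6 lists give each other's number. Every value for day 3 within batch EA-3702 rests on the first of these lists. Lists outside the rule came from the starting MEFs, from SSEA1-sorted day 6 cells and from V6.5 embryonic stem cells (ESCs) kept on irradiated feeder cells. KLF4 was profiled on days 3, 6 and 9 and in ESCs with and without 2i, a pair of kinase inhibitors. The series' design text calls the replicates biological, but the labels do not say which libraries came from separate cultures, so every p-value below measures the spread between libraries only.

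H3K27ac is the acetylation of lysine 27 of histone H3, which is laid down mainly by p300 and CBP and marks active promoters and enhancers. During reprogramming, fibroblasts lose the mesenchymal programme and take on epithelial features, and the pluripotency network is switched on later in a minority of cells. KLF4 is the zinc-finger member of the reprogramming cocktail, binds GC-rich motifs, and is known to bind at Cdh1 and other epithelial genes.

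Promoters of 4 genes are shown whose starts lay inside a gained region (Epcam and Spint1) or a lost region (Col1a2 and Col6a1). They are a selection. The rule of up to 3 promoters a class also gave Klhl33 (lost), Magi2 (gained) and Amotl2, Ephx1 and Pou6f1 (common), which are not shown. The Klhl33 window held 0 KLF matches and the Magi2 window 2, and neither held an AP-1 or octamer match. Epcam encodes an epithelial adhesion molecule, Spint1 a membrane inhibitor of serine proteases in epithelia, Col1a2 a chain of type I collagen and Col6a1 a chain of type VI collagen. Each stretch runs 5′ to 3′ from 250 bases before to 50 bases after the gene start in RefSeq on GRCm38.p6: chr17:87635729-87636028 on the plus strand for Epcam, chr2:119237110-119237409 on the plus strand for Spint1, chr6:4505368-4505667 on the plus strand for Col1a2 and chr10:76725995-76726294 on the minus strand for Col6a1. Capitals mark matches on either strand to GGGNGNGG (KLF), TGANTCA (AP-1) or ATTTGCAT (octamer); matches that overlap run together.
Epcam: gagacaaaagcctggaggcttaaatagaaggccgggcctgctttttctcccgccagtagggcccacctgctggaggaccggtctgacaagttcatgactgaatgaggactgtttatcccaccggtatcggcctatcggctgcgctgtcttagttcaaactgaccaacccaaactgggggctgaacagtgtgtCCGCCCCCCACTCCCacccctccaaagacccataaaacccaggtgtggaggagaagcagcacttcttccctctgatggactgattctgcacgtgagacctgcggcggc
Spint1: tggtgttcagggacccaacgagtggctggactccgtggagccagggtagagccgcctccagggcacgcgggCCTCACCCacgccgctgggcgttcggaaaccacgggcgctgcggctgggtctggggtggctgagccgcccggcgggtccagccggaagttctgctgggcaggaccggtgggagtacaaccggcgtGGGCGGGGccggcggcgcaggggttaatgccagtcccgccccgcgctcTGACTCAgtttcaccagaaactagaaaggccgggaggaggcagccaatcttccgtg
Col1a2: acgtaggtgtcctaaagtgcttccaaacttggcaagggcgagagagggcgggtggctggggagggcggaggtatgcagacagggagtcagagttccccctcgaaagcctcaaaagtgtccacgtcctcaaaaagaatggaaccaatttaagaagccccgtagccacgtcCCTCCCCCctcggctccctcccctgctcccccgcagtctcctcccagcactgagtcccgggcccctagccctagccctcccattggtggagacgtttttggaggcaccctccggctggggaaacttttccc
Col6a1: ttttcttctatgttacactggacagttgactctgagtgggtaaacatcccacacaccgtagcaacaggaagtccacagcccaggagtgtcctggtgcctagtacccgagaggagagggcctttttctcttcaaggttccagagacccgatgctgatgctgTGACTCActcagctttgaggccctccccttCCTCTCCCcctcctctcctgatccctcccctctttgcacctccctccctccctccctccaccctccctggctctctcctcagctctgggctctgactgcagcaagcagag
The Epcam window held 2 overlapping KLF matches, the Spint1 window 2 KLF matches and 1 AP-1 match, the Col1a2 window 1 KLF match, and the Col6a1 window 1 of each. None of the 4 held the octamer. A match is a description of the letters and not a binding site. Among all 20886 distinct promoter windows, 57.3% held the KLF letters, 7.01% the AP-1 letters and 1.69% the octamer. Windows with a start in a gained region (691) held them in 74.2%, 6.22% and 2.75%. Those with a start in a lost region (90) held them in 64.4%, 13.3% and 2.22%, and those in a common region (8979) in 71.4%, 4.00% and 1.34%. TEAD letters (GGAATG) stood in 14.3% of the gained, 17.8% of the lost, 11.1% of the common and 13.4% of all windows, and E-box letters (CANNTG) in 72.2%, 73.3%, 59.4% and 69.0%. Base composition was not alike across the classes. The median window held 7 CpG sites in the lost class, 18 in the gained class, 23 in the common class and 13 over all, and its part in the motif shares was not tested.

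The lists of both days were of like length, while the day 9 peaks were wider. Day 3 lists held 46723 (EA-3702), 50836 and 41471 peaks (DG-3458), and day 9 lists held 43974 and 45506. The difference of the means was -1603 peaks. These days were chosen for comparison because their lists are of like length, so this value is a description. Day 9 peaks covered 48.9 and 49.5 Mb against 38.4, 30.5 and 23.8 Mb at day 3, a difference of 18.3 Mb (two-sided exact permutation p = 0.2, adjusted p = 0.32). Median widths were 763 and 735 bp at day 9 and 567, 417 and 411 bp at day 3 (difference 284 bp, two-sided exact permutation p = 0.1, adjusted p = 0.2). Neither covered length nor median width overlapped between the days, but 3 libraries against 2 allow no p below 0.1. The day 3 list with the widest peaks and the largest covered length was the one from batch EA-3702, which also held both day 9 libraries. Peak lists carry no read counts, so the depth behind them is unknown and a missing peak does not show that acetylation was missing.

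**Figure D1:**
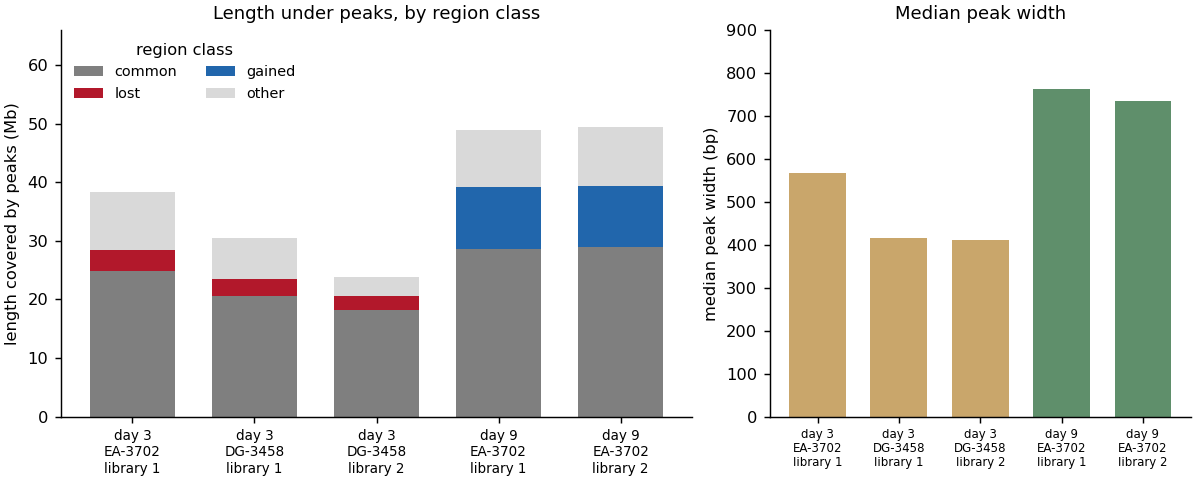
Length covered by peaks in Mb, split by region class (left), and median peak width in bp (right) for the 3 day 3 and 2 day 9 libraries; each bar is 1 library. The day 9 libraries cover 48.9 and 49.5 Mb and the day 3 libraries 23.8 to 38.4 Mb, and gained regions make up 21.7% and 21.1% of the day 9 length.

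Lists of the same day shared more of their bases than lists of different days. The Jaccard index (shared over combined bases) was 0.702 for the day 9 pair and 0.518 for the day 3 pair of batch DG-3458, and averaged 0.483 for the day 3 pairs across batches. Between the days it ranged from 0.289 to 0.371. The mean within days exceeded the mean between days by 0.224 (one-sided exact permutation p = 0.1, the smallest that 10 labelings can give, adjusted p = 0.2). Within batch EA-3702 the pairs of different days averaged 0.368, below every pair of the same day, whose lowest value was 0.474.

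Gained regions outnumbered lost ones when all 5 libraries were used. Both were narrower and weaker than common regions, an order that the rule favours, since common regions were merged from more lists and had to be called in each. The lost rule asked for peaks in 3 lists and the gained rule in 2, so the counts are not on an equal footing. With a day 3 library left out, which put 2 lists on each side, lost regions numbered 5388 to 6719 and gained ones 11937 to 13797. With a day 9 library left out, gained regions numbered up to 19712. Within batch EA-3702 alone, with 1 day 3 list against 2 from day 9, the order of the counts turned, with 17999 lost and 13199 gained. When the day 9 lists were shifted by 1 Mb, 1029 regions met the common rule against the 15242 observed, and the lost and gained rules were met by 20956 and 31391. Median width was 876 bp for lost, 838 bp for gained, 1986.5 bp for common and 381 bp for all other regions. In the authors' fold enrichment over background, the median lost region reached 3.36, 3.75 and 3.90 in the day 3 libraries and the median gained region 3.51 and 3.65 in the day 9 libraries. Common regions reached 5.99 to 6.52 at day 3 and 9.62 and 10.8 at day 9. Regions just outside the lost rule, with a peak in 2 of the 3 day 3 lists and none at day 9, numbered 4986 and had medians of 2.77 to 3.40. Those just outside the gained rule, with a peak in 1 day 3 list and both day 9 lists, numbered 3374 and had medians of 3.88 and 4.17.

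Lost and gained regions lay mostly away from gene starts. A protein-coding gene start was within 1 kb of 4.19% of lost, 8.53% of gained and 49.4% of common regions, against 2.60%, 2.87% and 4.61% when the regions were shifted by 1 Mb. The starts come from an incomplete table (79.9% of protein-coding genes), so these shares are lower limits. Of all peaks, 23.8% and 23.6% at day 9 and 23.4%, 23.0% and 28.0% at day 3 were near a start. The groups overlapped, and the difference was -1.16 percentage points (two-sided exact permutation p = 1, adjusted p = 1). Protein-coding genes, with nothing added to either side, overlapped 59.5% of lost, 57.3% of gained and 82.9% of common regions. Lost regions stood closer to common ones, with a median distance of 16.3 kb and 40.6% within 10 kb. Gained regions had a median of 36.1 kb, with 22.7% within 10 kb.

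The regions with the best-ranked peaks of each class were named with the gene they overlapped or, failing that, the nearest one. Among gained regions the first was chr8:23161401-23168592 at Nkx6-3, a homeobox gene, where the authors' fold was 27.4 and 30.0 in the day 9 libraries. Next came chr7:25572486-25577402, 32.5 kb from Ceacam2, with 29.7 and 24.3, and chr5:77118325-77121407, 3.20 kb from Hopx, with 30.0 and 24.8. Epcam was also among the 10 best, at chr17:87635284-87640008, with 24.6 and 22.9. Of the 10 best gained regions, 10 had a KLF4 peak in both day 9 libraries, 9 in both day 6 libraries, and 9 had H3K27ac in both ESC libraries. Over all gained regions, 37.4% had KLF4 in both day 9 and 20.9% in both day 6 libraries, and 32.3% were in the ESC lists alone and 6.42% in all MEF and ESC lists. The MEF lists had none at 8 of the 10 best. These 10 were 2584 to 7192 bp wide, against a median of 838 bp for all gained regions, and the part of width in these counts was not tested. The separate MEF libraries had a peak at 15.0% and 15.2% of all gained regions, so most gained regions had none there. Among lost regions the first was chr10:122889297-122893349 in Ppm1h, which encodes a protein phosphatase, with folds of 12.5, 15.0 and 17.2 in the day 3 libraries. Second was chr16:15989569-15993772 in Spidr, which takes part in DNA repair, with 11.2, 12 and 18.8. Of the 10 best lost regions, 8 had H3K27ac in both MEF libraries and none had it in an ESC library. Over all lost regions, 53.2% were in the MEF lists alone and 9.25% in all MEF and ESC lists. The separate ESC libraries had a peak at 15.4% and 15.6% of all lost regions, so most lost regions had none there. All 10 had a KLF4 peak in at least 1 day 3 library, and 5 had one in both, against 13.0% of all lost regions in both. In the separate day 3 libraries the shares of all lost regions were 32.6% and 15.1%. None of the 10 had a KLF4 peak in any day 6 or day 9 library, where 1.8% to 4.91% of all lost regions did. The 10 were 1392 to 6303 bp wide, against a median of 876 bp for all lost regions. Wider regions can meet more peaks, and the part of width was not tested. The best common regions were stronger, as at chr9:102716565-102723973 over Amotl2, which encodes an angiomotin family scaffold. There the fold was 38.3, 34.6 and 41.9 at day 3 and 47.0 and 53.2 at day 9.

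Lists that the rule did not use showed where the lost and gained regions were acetylated at other stages. Lost regions had a peak in 69.1% and 69.2% of cases in the MEF lists, in 2.00%, 0.888% and 5.08% in the day 6 lists, and in 15.4% and 15.6% in the ESC lists. Gained regions had one in 15.0% and 15.2%, in 5.23%, 3.67% and 11.4%, and in 46.3% and 44.7% of cases. Shares in shifted lists were 7.23% to 7.55% for MEFs, 0.888% to 2.04% for day 6 and 5.5% to 6.29% for ESCs. Day 6 lists were short, at 17493 to 22462 peaks against 81231 to 88347 in MEFs and ESCs, yet 67.8% to 84.1% of common regions had a peak in them. Because list length differed, each library was also scored by the share of gained regions among its peaks in either class. That share was 38.3% and 38.5% in MEFs, 88.2%, 92.2% and 86.5% at day 6 and 89.5% and 89.1% in ESCs. Both MEF libraries lay below all other 5, and day 6 and ESC libraries overlapped. With shifted lists the share was 73.6% to 80.7%. The slope over the order MEF, day 6, ESC was 25.5 points per step (two-sided exact permutation p = 0.0476, adjusted p = 0.190 over 8 tests) and did not pass after adjustment. Within batch DG-3458, which held both MEF and both ESC libraries and 2 from day 6, the shares were 38.3% and 38.5%, 88.2% and 92.2%, and 89.5% and 89.1%.

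**Figure D2:**
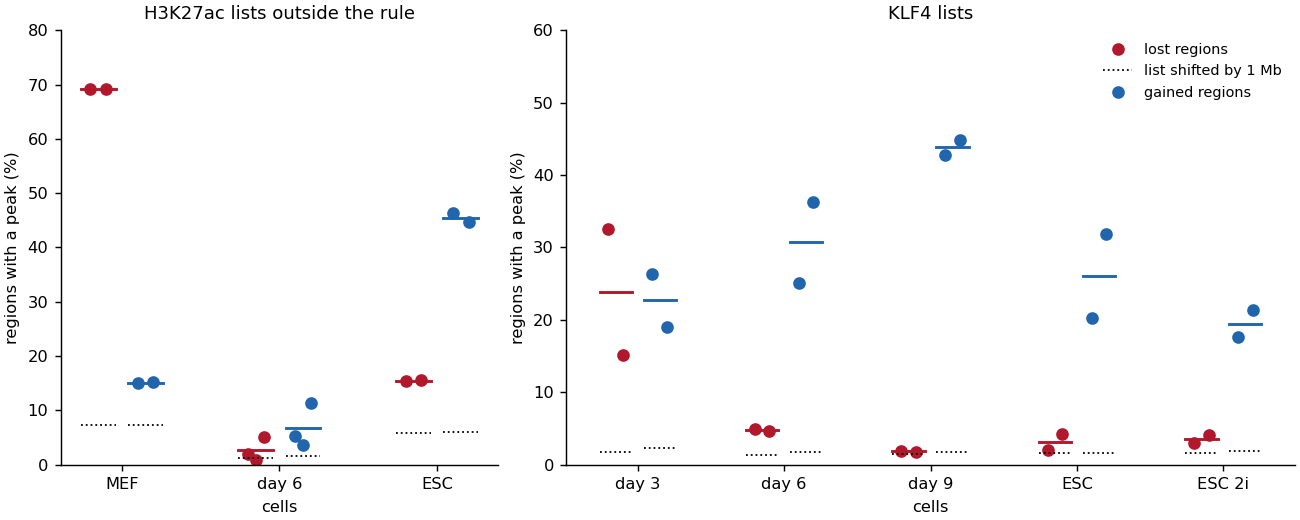
Percent of lost (red) and gained (blue) regions with a peak in each H3K27ac list outside the rule (left) and each KLF4 list (right); each point is 1 library, bars are group means and dotted lines give the mean with the list shifted by 1 Mb. Lost regions have MEF peaks in 69.1% and 69.2% of cases, and KLF4 peaks in gained regions reach 42.8% and 44.9% at day 9.

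By their state in the starting and end cells, the lost regions were mainly a MEF set, whereas the gained regions were divided. Of 4053 lost regions, 2158 (53.2%) had a peak in both MEF and no ESC list, 375 (9.25%) in all MEF and ESC lists, and 972 (24.0%) in none. Only 110 (2.71%) were in the ESC lists alone. Of 11580 gained regions, 3738 (32.3%) were in both ESC and no MEF list, and 4965 (42.9%) were in none of these lists. A further 743 (6.42%) were in all of them and 574 (4.96%) in MEF lists alone. The remaining 438 lost and 1560 gained regions had a peak in 1 library of a pair. Of the common regions, 10747 (70.5%) had a peak in all MEF and ESC lists. Gained regions that neither MEFs nor ESCs shared lay at gene starts in 3.40% of cases, against 33.8% of the gained regions that both shared.

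KLF4 peaks were found at gained regions from day 3 on, and more often at day 9. In the order EA-3702 and DG-4040, 26.4% and 19% of gained regions had a KLF4 peak at day 3 and 25.1% and 36.3% at day 6. The day 9 libraries, both EA-3702, had one in 42.8% and 44.9%, above all 4 earlier libraries. At lost regions the shares were 32.6% and 15.1% at day 3, 4.91% and 4.66% at day 6, and 1.88% and 1.8% at day 9, where shifted lists gave 1.48% and 1.43%. Every day 3 library was above every later one. The difference between gained and lost shares had a slope of 7.19 points per day (two-sided exact permutation p = 0.0222, the smallest that 90 labelings can give, adjusted p = 0.178). The slope was 7.96 over the EA-3702 libraries alone and 9.26 over the DG-4040 libraries alone, which cover days 3 and 6. In ESCs, 20.3% and 31.9% of gained and 1.97% and 4.29% of lost regions had a KLF4 peak, and in ESCs with 2i 17.6% and 21.4%, and 2.96% and 4.10%. Common regions had KLF4 in 77.3% and 58.5% at day 3, 69.0% and 54.4% at day 6 and 55.6% and 58.9% at day 9 (slope -1.77 per day, two-sided exact permutation p = 0.267, adjusted p = 0.356), with overlap between the days.

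Taking both libraries of a day together, 1689 gained regions (14.6%) had KLF4 at day 3 and 4327 (37.4%) at day 9. At 1337 (11.5%) it was found on both days, and at 1989 (17.2%) in neither day 3 but both day 9 libraries. A group of 1635 (14.1%) had KLF4 in both day 6 libraries while no day 6 H3K27ac list had a peak there. No KLF4 list of days 3 to 9 had a peak at 4643 gained regions (40.1%), at 2626 lost regions (64.8%) or at 1987 common regions (13.0%). Of the lost regions, 449 (11.1%) had KLF4 in both day 3 libraries and neither day 9 library. KLF4 differed by end-cell state as well. Gained regions absent from MEFs and ESCs had KLF4 in 21.6% ± 5.03 (SD, n = 2) of cases at day 3, 43.3% ± 1.17 at day 9 and 9.60% ± 4.54 in ESCs. Those shared with ESCs alone had it in 24.2% ± 4.81, 51.2% ± 1.36 and 48.1% ± 12.5. At day 9 and in ESCs the first set lay below the second in every library.

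Epithelial genes held gained regions and no lost ones. Of 32 epithelial junction, keratin and regulator genes, 26 had more gained than lost regions within the gene and 2.5 kb to each side, and 0 had more lost, against 19.7% and 4.90% of all 21631 protein-coding genes. At least 1 gained region was found at 21.4% of all genes and at least 1 lost region at 6.92%. The values below are kb under H3K27ac peaks over that span, with day 3 in the order EA-3702, DG-3458 1 and 2. MEF lists covered 82.8 and 83.5 Mb and ESC lists 66.3 and 62.3 Mb in all, more than any day 3 or day 9 list, so kb are not on an equal footing across cells. Cdh1, which encodes E-cadherin, had 1.71, 1.29 and 0.411 kb at day 3 and 23.8 and 20.9 kb at day 9, with 5 gained regions. It had 6.84 and 6.39 kb in MEFs and 37.0 and 37.9 kb in ESCs, so day 3 was below both. Grhl2, an epithelial transcription factor, had 1.14, 0.241 and 0.305 kb at day 3 and 15.5 and 13.7 kb at day 9, more than the 5.03 and 4.84 kb in ESCs. Epcam, Esrp1 (a splicing regulator of epithelia), Ovol1 and Ovol2 (repressors of mesenchymal genes), Spint1 and Marveld3 (a tight junction protein) had no peak in any day 3 library. At day 9 Esrp1 had 6.55 and 6.18 kb, Spint1 8.04 and 8.11 kb, and Marveld3 6.68 and 5.70 kb. Esrp1 had no peak at day 6 and 0.305 and 0.226 kb in ESCs, and Marveld3 had 0.261 and 0.243 kb in ESCs, far less than at day 9. Marveld3 was also peaked in MEFs, with 3.78 and 3.75 kb. Ehf, an epithelial ETS factor, was peaked at day 3 already (6.25, 4.56 and 4.69 kb) and had 15.2 and 12 kb at day 9 against 2.73 and 2.44 kb in ESCs. Krt18, Krt7, Cldn4, Esrp2, Pkp3 and Itgb4 had no gained region. Of the 64 gained regions at these genes, 24 were shared with ESCs alone, 26 were in neither MEFs nor ESCs, 1 was in MEFs alone and 13 were in 1 library of a pair. Over all gained regions 32.3% were shared with ESCs alone and 42.9% were in neither, so these counts were near the background. KLF4 was at 18 and 19 of the 64 at day 3 and at 34 and 35 at day 9, against 26.4% and 19%, and 42.8% and 44.9%, of all gained regions.

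**Figure D3:**
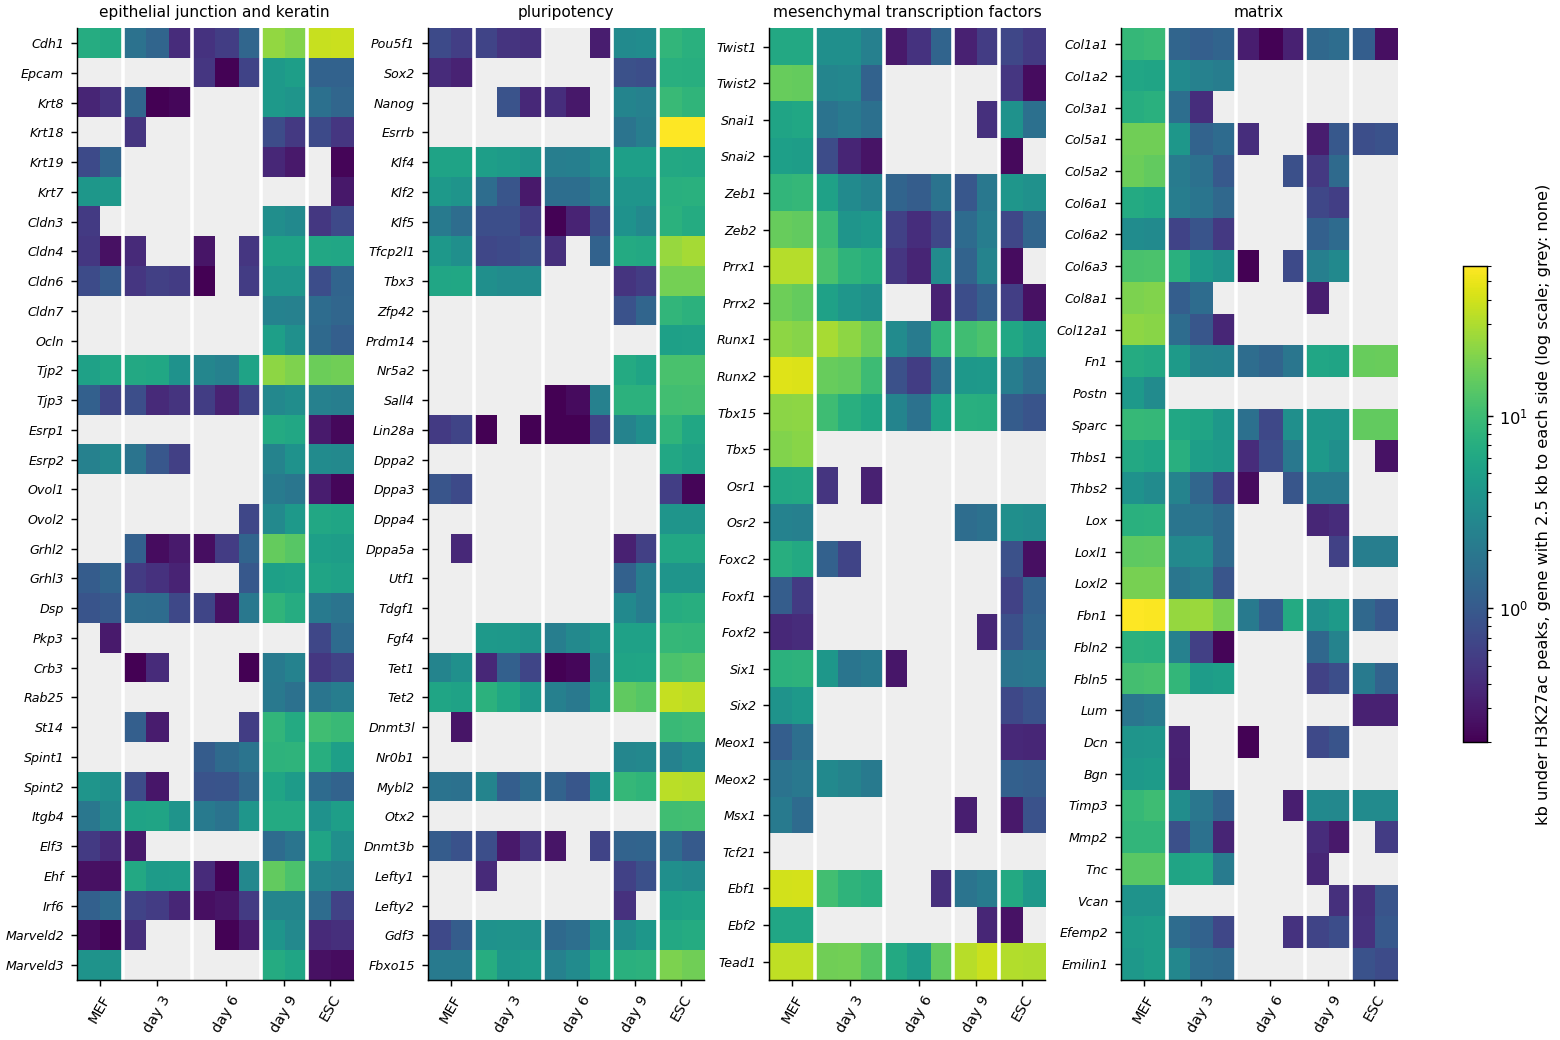
Length under H3K27ac peaks in kb (colour, log scale; grey is none) over each gene with 2.5 kb to each side, for epithelial, pluripotency, mesenchymal factor and matrix genes; each column is 1 library of MEFs, day 3, day 6, day 9 or ESCs. The epithelial gene Cdh1 has 23.8 and 20.9 kb at day 9. The matrix gene Col1a2 is covered at day 3 but not at day 9, whereas Fbn1, another matrix gene, has 3.57 and 4.47 kb at day 9.

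Gained starts were frequent in the epithelial list. Of its 19 genes with a start in the promoter table, 11 had it in a gained region, against 3.61% of all 17274 such genes. None of the 19 had it in a common region, as 44% of all such genes did, and 7 of the 20 pluripotency genes in the table had it in a gained and 7 in a common region. At Epcam the day 9 peaks ran from -0.695 to 3.56 kb and from -0.591 to 4.03 kb around the start shown above. MEF and day 3 lists had none there, day 6 lists had short peaks of 0.497, 0.205 and 0.637 kb inside the gene, and ESC peaks covered 1.20 and 1.19 kb. KLF4 peaks lay at 0.450 to 0.724 kb and 0.645 to 0.900 kb downstream of the start at day 3, when no day 3 H3K27ac list had a peak at the gene. A further H3K27ac interval about 22 kb upstream was in all 12 H3K27ac lists.

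**Figure D4:**
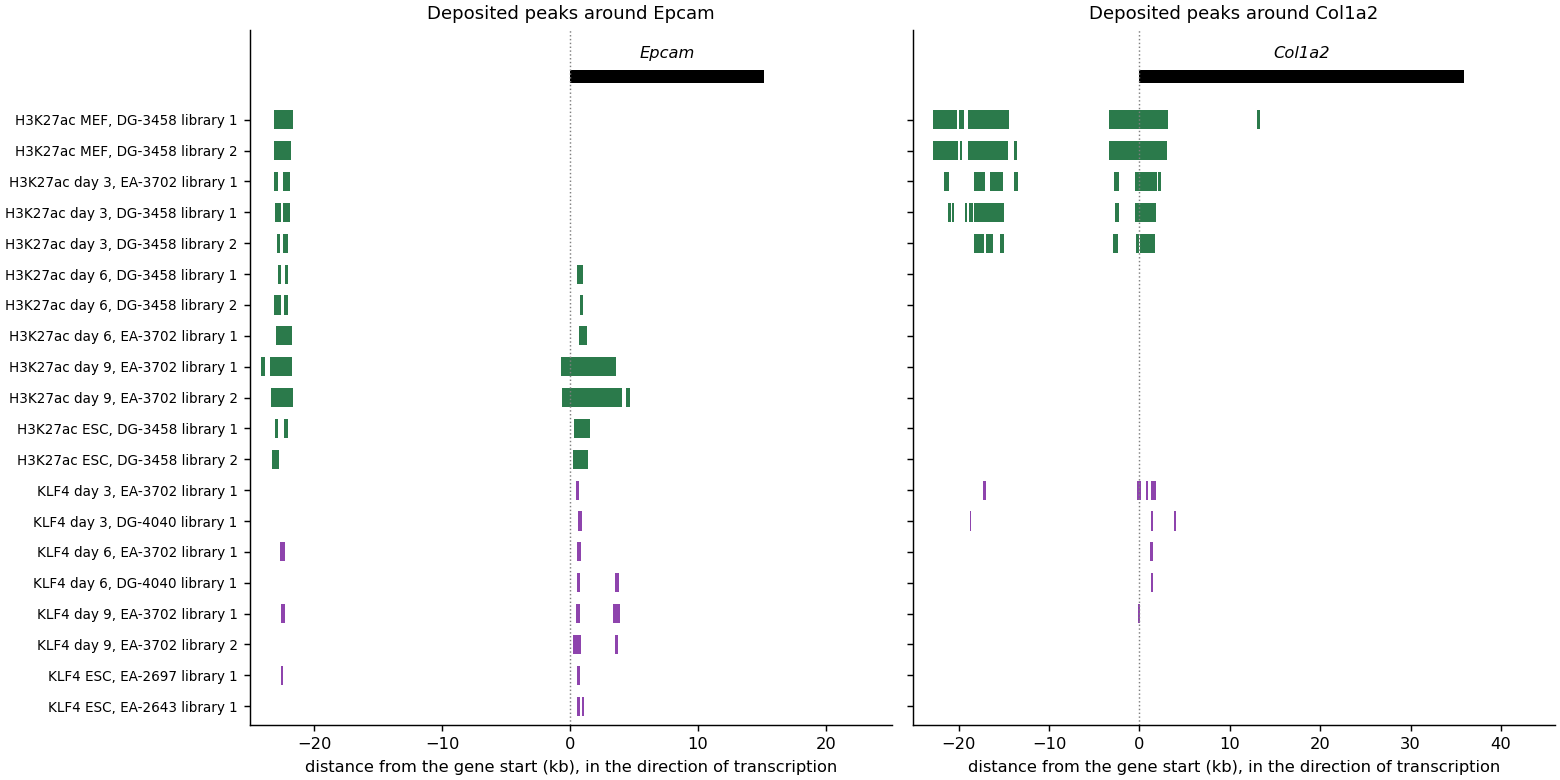
Deposited peaks around the starts of Epcam (left) and Col1a2 (right) as horizontal bars, 1 line per library, against distance from the gene start in kb; H3K27ac is green and KLF4 purple. At Epcam the peaks over the gene are widest at day 9 (-0.695 to 3.56 kb in the first library), and at Col1a2 the H3K27ac peak at the start is present in the MEF and day 3 libraries only.

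Pluripotency genes also held gained regions, and most had fewer bases under peaks than in ESCs. Nr0b1, with 2.74 and 2.90 kb at day 9 and 2.52 and 3.11 kb in ESCs, and Dnmt3b, with 1.22 and 1.24 kb and 1.5 and 1.00 kb, overlapped; per covered Mb, day 9 was above ESCs at both. Of 32 genes of the network, 17 had more gained than lost regions and 1 had more lost, against 19.7% and 4.90% of all genes. Sall4, a zinc-finger factor of the network, had no peak at day 3 and 7.89 and 7.87 kb at day 9, against 10.7 and 11 kb in ESCs. Nanog, a core homeobox factor, had 0, 0.863 and 0.388 kb at day 3, 2.62 and 2.47 kb at day 9 and 9.5 and 8.44 kb in ESCs. Both sat between day 3 and ESCs in every library. Per covered Mb, Sall4 had 0.161 and 0.159 kb at day 9 and 0.162 and 0.177 kb in ESCs, a small gap. Nanog had 0.0535 and 0.0499 kb at day 9 and 0.143 and 0.135 kb in ESCs. Esrrb, an orphan nuclear receptor, had none at day 3 and 1.8 and 2.29 kb at day 9, against 60.9 and 59.7 kb in ESCs. Nr5a2, another nuclear receptor, had none at day 3 and 6.60 and 5.64 kb at day 9, with 4 gained regions. Pou5f1, which encodes Oct4 and is also in the cassette, had 0.646, 0.472 and 0.443 kb at day 3 and 3.04 and 3.23 kb at day 9, and Sox2 had none and then 0.825 and 0.793 kb. Whether reads of the cassette entered the values at Pou5f1 and Sox2 was not tested. Dppa4, Prdm14, Otx2 and Dnmt3l had no peak on either day, though ESCs had 3.90 to 10.6 kb. Tbx3, a T-box factor, was the member with more lost regions, with 3.42, 3.15 and 3.11 kb at day 3, 0.472 and 0.555 kb at day 9 and 18.2 and 18.4 kb in ESCs. Of the 28 gained regions at these genes, 22 were shared with ESCs alone and 2 were in neither MEFs nor ESCs, against 32.3% and 42.9% of all gained regions. Of 10 SSEA1 synthesis and surface genes, 3 had more gained and 1 more lost regions, against 19.7% and 4.90% of all genes. With the top 50% of each list these were 1 and 0, against 12.9% and 3.90%. Fut9, the fucosyltransferase that makes the SSEA1 epitope, had no peak at day 3. It had 1.49, 1.295 and 1.65 kb at day 6 and 4.85 and 5.28 kb at day 9. Cells of days 6 and 9 were sorted on that epitope. Fut4 and Fut10 had no gained region, and at day 9 were below every day 3 library as a share of covered length.

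Genes of the mesenchymal programme held lost regions. Of 26 mesenchymal transcription factors, 12 had more lost than gained regions and 2 the reverse, against 4.90% and 19.7% of all genes. Twist2, a basic helix-loop-helix factor, had 2.67, 2.77 and 1.21 kb at day 3, none at day 9 and 15.9 and 15.7 kb in MEFs. Prrx1, a mesenchymal homeobox factor, had 11.8, 8.10 and 7.17 kb at day 3, 1.24 and 2.57 kb at day 9 and 31.5 and 32.1 kb in MEFs. At both genes the order MEF, day 3, day 9 held with no overlap in kb and per covered Mb, though the step from MEFs was smaller per covered Mb (0.381 and 0.385 kb at Prrx1 in MEFs, and 0.307, 0.265 and 0.301 kb at day 3). Runx2, known from bone formation, had 16.0, 15.3 and 9.96 kb and then 4.22 and 4.33 kb, with 6 lost and 2 gained regions. Snai1, a repressor of E-cadherin, had 1.75, 2.12 and 1.63 kb at day 3 and 0 and 0.437 kb at day 9, and Zeb1, another such repressor, 5.19, 3.06 and 2.5 kb and then 0.935 and 1.96 kb. Tead1, a partner of the Hippo effector Yap, stood on the other side, with 17.4, 17.8 and 13.1 kb at day 3 and 32.7 and 38.2 kb at day 9. Tbx5 had none on either day though MEFs had 20.5 and 21.7 kb. Of the 29 lost regions at these genes, 19 were in MEFs alone and 7 in both MEFs and ESCs, against 53.2% and 9.25% of all lost regions.

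Matrix and contractile genes stood on the same side. Of 30 matrix genes, 11 had more lost and 5 more gained regions, and of 24 contractile genes, 11 and 2, against 4.90% and 19.7% of all genes. The contractile count of 11 was 6 at q of at most 0.01 and with merging over 500 bp, where less than 4.90% of all genes had more lost regions. Within batch EA-3702 alone it was 18 and the matrix count was 21, where 16.6% of all genes had more lost regions. With the top 50% of each list, 12 matrix genes had more lost and 1 more gained regions, against 3.90% and 12.9% of all genes. Fbn1, which encodes the microfibril protein fibrillin-1, had 11 lost regions and 24.1, 25.6 and 19 kb at day 3 against 3.57 and 4.47 kb at day 9 and 59.9 and 58.3 kb in MEFs. Per covered Mb, Fbn1 had 0.724 and 0.698 kb in MEFs, 0.628, 0.838 and 0.798 kb at day 3 and 0.0729 and 0.0902 kb at day 9, so that MEFs and day 3 overlapped and day 9 stood below both. Col1a2 had 3.07, 2.46 and 2.25 kb at day 3 and none at day 9 or in ESCs. The peak over its start, whose promoter is shown above, had a fold of 37.4 and 30.0 in MEFs. At day 3 it had 8.12 in the EA-3702 library and 7.49 in the first DG-3458 library. In the second DG-3458 library, a peak that ended at the start had 4.88, and one from 0.049 kb downstream had 7.12. The highest fold of any peak was 85.9 and 92.8 in MEFs and 42.5, 35.6 and 41.9 at day 3, so folds are not on an equal footing across lists. Tnc, a matrix glycoprotein, had 5.53, 5.79 and 2.12 kb and then 0.366 and 0 kb. Of 26 lost regions at matrix genes, 22 were in MEFs alone, against 53.2% of all lost regions. KLF4 was at 13 and 5 of them at day 3 and 2 and 0 at day 9, against 32.6% and 15.1%, and 1.88% and 1.8%, of all lost regions. Of the 19 matrix genes with a start in the table, 4 had it in a lost region, against 0.48% of all genes. Among contractile genes, Cald1, which encodes the actin-binding protein caldesmon, had 26.4, 20.6 and 13.5 kb at day 3 and 9.11 and 7.27 kb at day 9. Acta2, the smooth muscle actin, had 4.16, 3.41 and 3.83 kb and then 1.69 and 1.70 kb, but its region was common. KLF4 was at 4 and 4 of the 30 lost regions of the contractile genes at day 3, against the same 32.6% and 15.1%. It was at none on days 6 and 9, when the shares over all lost regions were also low (1.8% to 4.91%).

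Counts at signalling genes moved with the processing, and no test compared the pathways. Of 20 LIF and FGF genes, 9 had more gained and 1 more lost regions, against 19.7% and 4.90% of all protein-coding genes. With the top 50% of each list these were 3 and 0 genes, against 12.9% and 3.90% of all genes. Within batch EA-3702 alone they were 5 and 6, against 17.6% and 16.6%. Etv5, an ETS factor downstream of FGF, had 11.9, 10.7 and 6.82 kb at day 3 and 27 and 27.7 kb at day 9, and Etv4 had 0.683, 0 and 0 kb and then 4.79 and 4.94 kb. Jak1, the kinase of the LIF receptor complex, was the one with more lost regions, with 4.19, 3.01 and 1.55 kb and then 0.880 and 1.04 kb. Of 25 TGF-beta genes, 6 had more lost and 3 more gained regions. These counts were 6 and 5 with the top 50% of each list, 2 and 6 at q of at most 0.01, 12 and 5 with 20 kb to each side of a gene, and 19 and 0 within batch EA-3702 alone. The shares of all genes with more lost and more gained regions were 3.90% and 12.9%, 3.38% and 20.2%, 7.47% and 32.3%, and 16.6% and 17.6% under these settings. Smad7, an inhibitor of that pathway, had 11.8, 9.52 and 9.07 kb at day 3 and 4.27 and 6.78 kb at day 9. Of 15 AP-1 genes, 2 had more lost and 1 more gained regions, a small number. Fosl2, a Fos family member, had 8.98, 7.78 and 6.24 kb and then 3.82 and 2.95 kb. Mafk and Jdp2 also had fewer kb in both day 9 than in every day 3 library. Fos, Fosb, Fosl1, Jund, Atf3, Maff, Bach1 and Bach2 had more. As a share of each library's covered length, only Fosl1, Jund and Bach1 stayed above, and Fos and Fosb were below. The housekeeping list, 20 genes, had 1 gene with more gained and 0 with more lost regions, yet 19 of the 20 had more kb in both day 9 than in every day 3 library, as did 45.4% of all protein-coding genes. Taken as a share of each library's covered length, which was larger at day 9, 9 of the 20 housekeeping genes were above and 2 below, against 24.2% and 17.2% of all genes. In kb, the reverse held for 4.27% of all genes, and for 14 of 30 matrix, 14 of 24 contractile and 13 of 26 mesenchymal factor genes (18, 20 and 14 as a share of covered length).

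**Figure D5:**
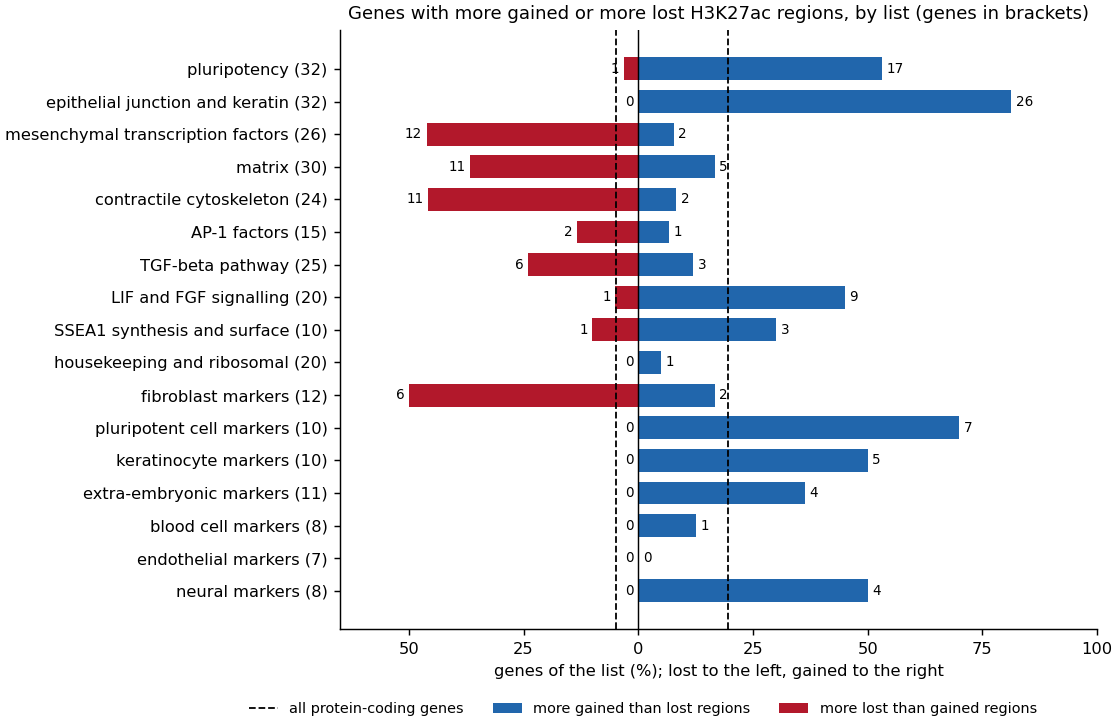
Percent of the genes of each list with more lost (left, red) or more gained (right, blue) regions, with the number of genes at each bar; dashed lines give all 21631 protein-coding genes, 4.90% and 19.7%. The epithelial list reaches furthest to the right with 26 of 32 genes.

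Markers of several cell types differed between the days, while those of blood and endothelial cells overlapped. Summed over 12 fibroblast markers, peaks covered 15.7 to 27.5 kb at day 3 and 6.14 and 7.11 kb at day 9, against 105 and 109 kb in MEFs. Of the 12, 3 to 5 were at 0 at day 3 and 7 and 8 at day 9. Prrx1 alone made up 11.8, 8.10 and 7.17 kb of the day 3 sums. More lost than gained regions were found at 6 of the 12, and the reverse at 2, Dcn and S100a4, against 4.90% and 19.7% of all genes. With the top 50% of each list the count of 6 was 2, against 3.90% of all genes, and with lists of equal length 4, against 4.61%. Dcn, which encodes the proteoglycan decorin, had 0.343, 0 and 0 kb at day 3 and 0.704 and 0.879 kb at day 9. S100a4, a calcium-binding protein gene, had 1.90, 1.69 and 2.01 kb and then 2.51 and 2.12 kb, and Col1a1, the locus of the cassette, 1.28, 1.14 and 1.25 kb and then 1.37 and 1.54 kb. At all 3 genes both day 9 values were above every day 3 value. As a share of each library's covered length, Dcn alone stayed above, S100a4 overlapped and Col1a1 was below every day 3 library. The 10 pluripotent cell markers had 0 to 0.86 kb at day 3 and 22.5 and 24.3 kb at day 9, against 121 and 118 kb in ESCs; 2 of them were at 0 at day 9. The 10 keratinocyte markers had 2.68 to 3.21 kb at day 3 and 10.6 and 8.33 kb at day 9. Their sums were 9.02 and 10.1 kb in MEFs and 8.85 and 9.90 kb in ESCs, so day 9 overlapped with both. Sfn, which encodes stratifin, made up 4.04 and 2.78 kb of the day 9 sums. Trp63, the basal-cell factor p63, had 2.31, 2.42 and 2.68 kb at day 3 and 2.64 and 1.40 kb at day 9, with overlap, and was below every day 3 library as a share of covered length. Krt13 had 0.464 kb in 1 day 3 library and none at day 9, and Ivl and Krt16 had no peak on either day. Krt6a, Krt14 and Sprr1a had no peak in MEFs, day 3 cells or ESCs and 1.57 and 0.892 kb, 0.536 and 0.489 kb, and 1.24 and 1.29 kb at day 9. None of the 6 gained regions at keratinocyte markers and all 12 at pluripotent markers were shared with ESCs alone, against 32.3% of all gained regions, and 6 regions are few. Extra-embryonic markers (11) had 0 to 1.08 kb at day 3 and 4.27 and 5.19 kb at day 9, and neural markers (8) 0 to 0.51 kb and then 5.12 and 6.22 kb. Of the neural sums, Map2 made up 3.44 and 1.905 kb at day 9, and it had 23.2 and 24.5 kb in MEFs. Blood cell markers (8) had 3.61 to 7.32 kb and 6.00 and 6.43 kb, and endothelial markers (7) 5.18 to 9.5 kb and 6.14 and 7.02 kb, with overlap between the days. The part of cell mixture, and of the SSEA1 sort, in any of these differences was not tested, since fewer cells of a type and fewer acetylated copies per cell look alike in bulk chromatin.

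Some genes held many regions of 1 class. Dnm3, a dynamin gene, had 15 lost regions and none gained, with 44.2, 44.5 and 37.1 kb at day 3 and 6.38 and 9.37 kb at day 9. MEFs had 130 and 129 kb there, but per covered Mb MEFs (1.58 and 1.55 kb) and day 3 (1.15, 1.46 and 1.56 kb) overlapped. Camk2d, a calcium-dependent kinase gene, had 12 lost and 2 gained regions. Ptprm, a receptor phosphatase gene, and Antxr1, an anthrax toxin receptor gene, had 10 each and none gained. Rbm20, a splicing factor gene best known from heart muscle, had 20 gained regions and none lost, with 2.83, 4.31 and 2.03 kb at day 3 and 22.8 and 26.9 kb at day 9, above both MEFs (13.9 and 15.0 kb) and ESCs (14.3 and 16.1 kb). Ptprn2, a phosphatase-like gene of secretory granules, had 16 gained regions and 18.4 and 18.7 kb at day 9, against 1.21 and 1.13 kb in MEFs and 5.55 and 5.75 kb in ESCs. Cdh13, a cadherin gene, had 15 gained regions, with 13.3, 10.7 and 8.58 kb at day 3 and 38.5 and 38.2 kb at day 9, also above MEFs and ESCs. Nav2, a neuron navigator gene, combined 15 gained with 8 lost regions. The 20 genes chosen this way span 202 to 1485 kb, against a median of 17.3 kb, and a count of regions favours long genes.

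Common regions differed in rank between the days in both directions. After each list was limited to its 41471 best-scored peaks, 14486 common regions could be ranked by score in all 5. At 4535 of them (31.3%) both day 9 libraries ranked the region higher than every day 3 library, and at 3899 (26.9%) lower. Higher-ranked regions lay at a gene start in 55.6% of cases and lower-ranked ones in 40.9%, against 50.8% of all 14486 ranked common regions. A peak in both ESC lists was found at 88.1% of the higher and 69.2% of the lower ones, against 80.02% of all ranked. In both MEF lists the shares were 81.7% and 83.8%, against 83.5% of all ranked. KLF4 was at 69.9% of the higher and 72.8% of the lower ones at day 3 (means of 2 libraries), and at 68.7% ± 1.93 and 50.1% ± 2.61 (SD, n = 2) at day 9. Over all ranked common regions the mean KLF4 shares were 68.7% at day 3 and 58.3% at day 9. At day 3 both sets were thus near the share of all ranked regions. Every day 9 library had more KLF4 in the higher-ranked than in the lower-ranked set. Within batch EA-3702 alone, with 1 day 3 list, 47.4% ranked higher and 41.3% lower. Where peaks had to cover 50% of a region, a rule added after seeing the data, the order turned, with 19.5% higher and 37.3% lower.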

How the data were processed

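H3K27ac and KLF4 ChIP-seq peaks were taken from the deposited per-library lists. The submitters' processing notes name cutadapt 1.8.1, Bowtie2 2.2.5, deepTools 2.3.6, MACS2 2.1.1 and the build mm10, with no role or order. Each deposited peak has a score, a fold enrichment (ratio), a −log10 p-value and a −log10 q-value, given by the authors' peak caller; how these were set is not given in the sources used here. The peak lists hold no read counts, so depth is unknown.

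Peaks sharing 1 bp were merged, and a library was present in a region when a peak of it overlapped. Genes came from a RefSeq table of 21631 protein-coding genes; gene starts came from a RefSeq promoter table (GRCm38.p6, 17274 of those genes, 79.9%; all 280 list genes were in the gene table and 184 had a start). Chromosome 18 has no start in that table and was left out of start shares. The 8 tests were exact permutations over libraries with Benjamini-Hochberg adjustment at 0.05. The adjustment includes the test of peak number, which the choice of days had used and which is given as a value only. Genes and regions named were the 10 best-ranked regions of each class, the 10 genes with the most lost or gained regions, members of 17 gene lists, and up to 3 promoters a class. The members and lists were chosen with earlier results of these data known. Python 3.11.15, numpy 2.4.6, pandas 2.3.3, scipy 1.17.1 and matplotlib 3.10.9 were used, and the procedure was tested on simulated data. Alternatives changed the peaks used (top 50%, equal length, q of at most 0.01), the merging, the presence and absence rules, the gene flank, the rank measure, the batch and single libraries. Gene values were also divided by the covered length of each library, a scaling added after seeing the data. The 13 input libraries were not analysed here.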

Additional observations from a re-analysis of the deposited data

Results flagged for a closer look

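Peaks on chromosome Y lie outside the chromosomes compared. Among H3K27ac lists, the day 9 libraries held more of them than the others of the reprogramming course. There were 56 and 58 in the day 9 libraries, 7, 6 and 7 at day 3, 17 in each MEF library, 4 to 12 at day 6, and 73 and 61 in ESCs. The KLF4 lists, which were shorter than the day 9 H3K27ac lists, held 27 and 55 at day 3. They held 18 and 22 at day 6 and 26 and 28 at day 9.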

How the results depend on the processing

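Lost regions numbered 2150 with the top 50% of each list, 2455 at q of at most 0.01, 1880 where peaks had to cover 50% of the region (chosen after seeing the data) and 17999 in batch EA-3702 alone, and 4577 to 6719 when a library was left out. Gained regions numbered 5663 with the top 50% and 11937 to 19712 when a library was left out (19712 and 18977 without the first and second day 9 library). Common regions numbered 5859 under the 50% coverage rule, where 19.5% ranked higher and 37.3% lower at day 9; in batch EA-3702 alone 47.4% ranked higher and 41.3% lower. Genes with more lost regions numbered 6 in the contractile list at q of at most 0.01 and with merging over 500 bp, 7 under the coverage rule and with no peak of the other day within 1 kb, and 18 in the batch alone; the matrix list had 21 there and the mesenchymal list 6 under the coverage rule (shares of all genes 3.38% at that q, 4.41% with 500 bp, 2.71% under the coverage rule, 4.33% with 1 kb and 16.6% in the batch, against 4.90%). A pair of measures changed sign, neither with an adjusted p under 0.05: the peak number difference was 5516 at q of at most 0.01 and -4040 to 643 when a library was left out (643 without the first day 3 DG-3458 library). The gene start difference was -4.54 at q of at most 0.01, 0.53 with the top 50%, 0.24 in the batch alone and -2.06 to 0.43 when a library was left out (0.43 without the second day 3 DG-3458 library). The cause was not tested. With a replicate block over the numbers of batch DG-3458, the gained share slope was 25.5 (exact permutation p = 0.167). No paired analysis was possible for day 3 against day 9 because within a batch they share fewer than 2 numbers. Same-numbered libraries of MEFs, day 3, day 6 and ESCs had deviations correlated at -0.011 to 0.0022. That check held no day 9 library and cannot tell whether same-numbered libraries shared a culture. Permutation within batch gave p = 0.0889 for the gained share and p = 0.0417 for KLF4 in gained minus lost regions, both exact. Over all alternatives the gained share slope was 20.1 to 30.0 (adjusted exact permutation p = 0.0762 to 0.32), the KLF4 slope 4.65 to 9.26 (0.178 to 1), and 22 to 29 epithelial genes had more gained regions.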

Other observations

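Chromosome X had 282 gained and 42 lost regions, or 6.71 gained for each lost one, whereas the autosomes had 2.19 to 3.34 with a median of 2.93. X-linked peaks made up 2.09% and 2.1% of the day 9 lists and 1.74%, 1.49% and 1.61% of the day 3 lists, without overlap between the days. These values were chosen after they were seen and were not tested.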
